A study of Mus musculus with 8 samples.

Results

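The genes described here encode the proteins of the mitochondrial ribosome and were chosen by symbol: every protein-coding gene named Mrpl or Mrps followed by a number, with pseudogenes left out. There were 78 such genes among 55573 in the count table, 49 named for the large subunit (Mrpl) and 29 for the small subunit (Mrps), spread over 17 chromosomes with 11 on chromosome 11 and 8 on chromosome 17. Gene expression was measured by RNA sequencing of hearts from male mice aged 24 weeks on the C57BLKS/J strain, with 3 µg of total RNA per library. The 2 groups were db/db (4 libraries), which carry on both chromosomes a recessive mutation of Lepr, the leptin receptor gene, that leads to obesity and diabetes, and db/m (4 libraries), the heterozygous lean control, which carries the same mutation on a single chromosome. The mutation is carried in every tissue and is not specific to the heart.

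Mitochondria build a small set of respiratory chain proteins from their own DNA, and they do so on a ribosome whose proteins all come from nuclear genes while its RNA is made inside the organelle. The small subunit reads the messenger RNA, and the large subunit joins the amino acids and feeds the chain towards the inner membrane. Heart muscle is packed with mitochondria and depends on this supply of respiratory chain subunits. Some of the proteins have a bacterial counterpart, and others are found only in mitochondria.

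In the genome, many of these genes start close to a neighbour on the opposite strand. Some of these pairs overlap at their annotated starts, as Mrpl43 and Twnk do, and others do not. An oppositely oriented protein-coding gene began within 1000 bases of the start of 33 of the 78 genes (42.3%), against 2371 of all 21980 protein-coding genes (10.8%). Several of the neighbours also serve mitochondria. Mrpl43 pairs with Twnk, the mitochondrial DNA helicase, Mrps12 with Sars2, the mitochondrial seryl-tRNA synthetase, and Mrpl36 and Mrpl47 with the respiratory complex I genes Ndufs6 and Ndufb5. Other partners have roles elsewhere, such as Psma2, a proteasome subunit, beside Mrpl32, and Tcp1, a cytosolic chaperonin subunit, beside Mrpl18. Mrps11 and Mrpl46, 1 gene of each subunit, start on opposite strands of chromosome 7. Their RefSeq start sites lie 42 bases apart and point away from each other.

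RefSeq promoter windows on GRCm38.p6, from 250 bases before to 50 bases after a start site, were at hand for 69 of the 78 genes (75 windows). Each window was searched on both strands for letters recognised by regulators of nuclear genes for mitochondria: GCGCNTGCG for NRF1, CCGGAAG for ETS factors such as GABPA, and AAGATGGC for YY1. ETS letters were found in 26 of the 69 genes (37.7%), NRF1 letters in 18 (26.1%) and YY1 letters in 12 (17.4%). Among 17492 protein-coding genes with a window the shares were 12.9%, 9.68% and 3.57%, and over all 32851 windows they were 8.86%, 6.31% and 2.75%. At least 1 of the 3 was present in 44 of 69 genes (63.8%), against 22.9% of protein-coding genes. CCAAT was found in 27 of 69 (39.1%, against 42.3%) and TATAAA in 5 of 69 (7.25%, against 14.8%). A match is a description of the letters and not evidence of a bound site.

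Printed here are the windows of the neighbours Mrps11 and Mrpl46 and those of Mrps12 and Mrpl32. The last 2 hold 2 different matches each. Capitals mark the NRF1, ETS and YY1 letters. The Mrps11 window (chr7:78782881-78783180, plus strand) and the Mrpl46 window (chr7:78783040-78783339, minus strand) overlap by 141 bases. Mrps11 holds a YY1 match, while no NRF1, ETS or YY1 letters were found in the Mrpl46 window. The Mrps12 window (chr7:28741772-28742071, minus strand) holds a YY1 and an ETS match, and the Mrpl32 window (chr13:14612988-14613287, minus strand) a YY1 match and 3 NRF1 matches, of which 2 lie on opposite strands of the same stretch.
Mrps11: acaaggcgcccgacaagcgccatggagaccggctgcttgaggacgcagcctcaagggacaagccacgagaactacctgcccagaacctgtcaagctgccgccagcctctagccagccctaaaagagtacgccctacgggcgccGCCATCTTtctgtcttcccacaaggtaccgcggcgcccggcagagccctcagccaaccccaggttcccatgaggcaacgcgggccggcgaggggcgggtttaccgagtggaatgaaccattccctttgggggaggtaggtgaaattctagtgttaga
Mrpl46: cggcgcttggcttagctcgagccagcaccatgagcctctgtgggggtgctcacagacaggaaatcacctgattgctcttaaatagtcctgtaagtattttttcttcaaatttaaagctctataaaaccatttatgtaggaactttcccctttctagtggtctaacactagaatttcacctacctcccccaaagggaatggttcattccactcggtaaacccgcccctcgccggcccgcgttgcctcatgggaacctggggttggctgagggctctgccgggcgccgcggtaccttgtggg
Mrps12: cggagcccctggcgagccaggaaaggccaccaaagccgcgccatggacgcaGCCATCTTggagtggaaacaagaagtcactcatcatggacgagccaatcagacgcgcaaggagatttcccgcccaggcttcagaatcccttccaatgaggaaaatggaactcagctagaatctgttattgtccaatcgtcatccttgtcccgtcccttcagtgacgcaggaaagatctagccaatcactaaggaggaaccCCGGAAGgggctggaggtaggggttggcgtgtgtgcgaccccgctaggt
Mrpl32: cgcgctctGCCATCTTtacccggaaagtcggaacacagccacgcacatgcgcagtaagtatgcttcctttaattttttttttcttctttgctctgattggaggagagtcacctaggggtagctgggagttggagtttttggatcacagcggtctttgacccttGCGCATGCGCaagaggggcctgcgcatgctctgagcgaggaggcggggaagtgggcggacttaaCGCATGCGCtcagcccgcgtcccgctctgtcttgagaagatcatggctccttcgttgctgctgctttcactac

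Total counts per library ranged from 19541757 to 22249911, and the 78 genes took 0.121% to 0.258% of them. The db/m library labelled replicate 3 stood apart from the other 7, so the fold changes of the named genes and the medians of the gene lists are also given without it. Its limma-voom sample quality weight was 0.124, against 0.943 to 2.09 in the others. All 6 atrial cardiomyocyte markers and all 8 adipocyte markers were higher in db/m replicates 1 and 3 than in every other library. Summed atrial markers were at 1632 CPM (counts after scaling all libraries to the same size) in db/m replicate 1 and 3887 in replicate 3, against 16.0 to 118 in the other 6 libraries, and summed adipocyte markers at 360 and 909, against 24.5 to 37.4. Bmp10 alone gave 3072 CPM of the atrial sum in db/m replicate 3, against 103 in replicate 1. All other atrial markers were lower in replicate 3 than in replicate 1. The atrial marker Sln had 0 counts in all 4 db/db libraries and also in db/m replicate 2. The adipocyte marker Ucp1 had 0 counts in all 4 db/db libraries and also in db/m replicate 4. Cardiomyocyte markers were abundant in all 8 libraries, with sums of 30441 to 37860 CPM in 7 of them and of 28290 in db/m replicate 3, which matches the heart label. Myh6 made up 20479 CPM of the sum in db/m replicate 3. That library was the lowest in 6 of the 8 markers and the highest in 2. Myl2, for example, was at 117 CPM there, against 593 to 999 in the other libraries. Lepr, the mutated gene, had 5.28, 8.49, 21.0 and 7.98 CPM in db/m and 6.68, 6.38, 3.73 and 6.24 in db/db; the mutation alters splicing, so this total does not check the genotype. Whether the 8 libraries stem from 8 animals is not stated in the labels; p-values therefore reflect only how much these libraries scatter, and that scatter may be technical. In whole-heart RNA, fewer cells of a type and less RNA per cell cannot be told apart.

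Levels of the members within the heart spanned a wide range. Per kilobase of exon, the highest gene was Mrpl34, a small protein of the large subunit with a bacterial counterpart, at 91.6 ± 28.4 CPM per kilobase (SD, n = 8 libraries). Mrps23, a small-subunit protein found only in mitochondria, followed at 66.1 ± 20.2. Mrpl28 came next at 49.9 ± 17.9, and Mrpl41 at 46.2 ± 14.2. Each of these 4 differed from the next in the order by less than its own SD. That SD is a spread over libraries that all the genes share, with the low db/m replicate 3 among them. It therefore does not show whether the order held within each library. The top 10 held 7 large-subunit and 3 small-subunit genes. The median gene of the large subunit was at 10.5 CPM per kilobase (48 tested genes) and that of the small subunit at 7.25 (28 tested genes), with middle ranges of 5.11 to 23.7 and 3.54 to 16.3 between quartiles. The subunits overlapped along the whole order, as the ranked plot shows. Over the tested genes, the level per kilobase had a Spearman correlation of -0.61 with the deposited exon length. With the length of the longest protein-coding transcript it was -0.21. The order and these medians therefore rest on the exon length used.

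**Figure D1:**
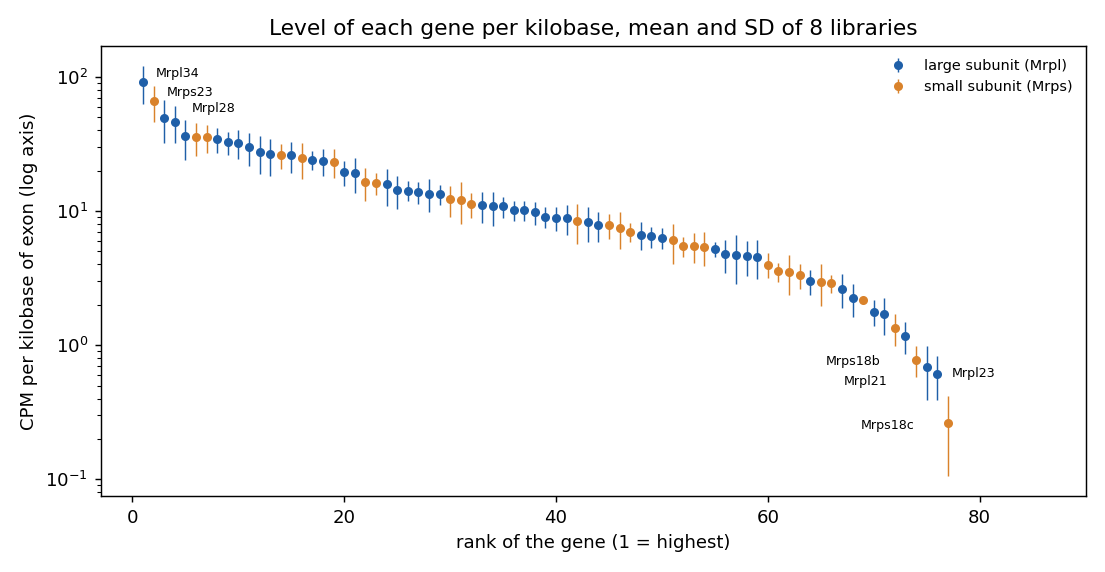
Level of each gene in CPM per kilobase of exon (log axis) against its rank, as the mean and SD of all 8 libraries, for large-subunit (blue) and small-subunit (orange) genes. Both subunits spread over the whole range, from Mrpl34 at 91.6 to Mrps18c at 0.262; Mrpl53, at 0 in all libraries, cannot be drawn on a log axis.

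At the low end, Mrpl53, a mitochondria-only protein of the large subunit, had 0 counts in all 8 libraries, which allows up to 3 counts, or 0.135 to 0.154 CPM, per library. Other annotated genes cover 88.0% of its exon bases, most of all Gm42688. Mrps18c, of the small subunit, had 46 counts in all, with 0.176, 0.589, 0.0414 and 0.285 CPM in db/m replicates 1 to 4 and 0.323, 0.188, 0.230 and 0.427 in db/db replicates 1 to 4. Neither gene passed the filter on low counts, which left 76 tested genes, 48 of the large and 28 of the small subunit. The lowest tested genes were Mrpl23 at 0.611 CPM per kilobase, Mrpl21 at 0.689 and Mrps18b at 0.780. The ribosomal RNAs that these proteins assemble with, mt-Rnr1 and mt-Rnr2, also had 0 counts in every library of the deposited table.

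Many of the low genes have near-identical pseudogenes. BLAST matched 22 pseudogenes (at least 95% identity over at least 0.5 of the pseudogene) to 18 of the 78 genes, 10 of the large and 8 of the small subunit. In 16 of the 18, the copies held more counts than the gene itself. The 18 genes had a median of 2.61 CPM per kilobase, against 11.1 in the 60 genes without a copy, and 9 of the 10 lowest tested genes had a copy. Mrpl42 had 1363 counts over the 8 libraries, against 41078 in its copy Gm6419. Mrpl23, a protein at the exit of the peptide tunnel, had 508, against 9673 in Mrpl23-ps1, and Mrpl21 had 230, against 6061 in D9Wsu149. The exceptions were Mrpl41, with 6811 counts against 77, and Mrps26, with 3933 against 2350. How reads that fit both places were assigned is not given in the sources used here, so levels of these 18 genes are uncertain. A further source of uncertainty is exon overlap with another gene, of at least 10% in 18 genes, since the use of strand is not stated. Neither limit applied to 43 of the 78 genes.

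**Figure D2:**
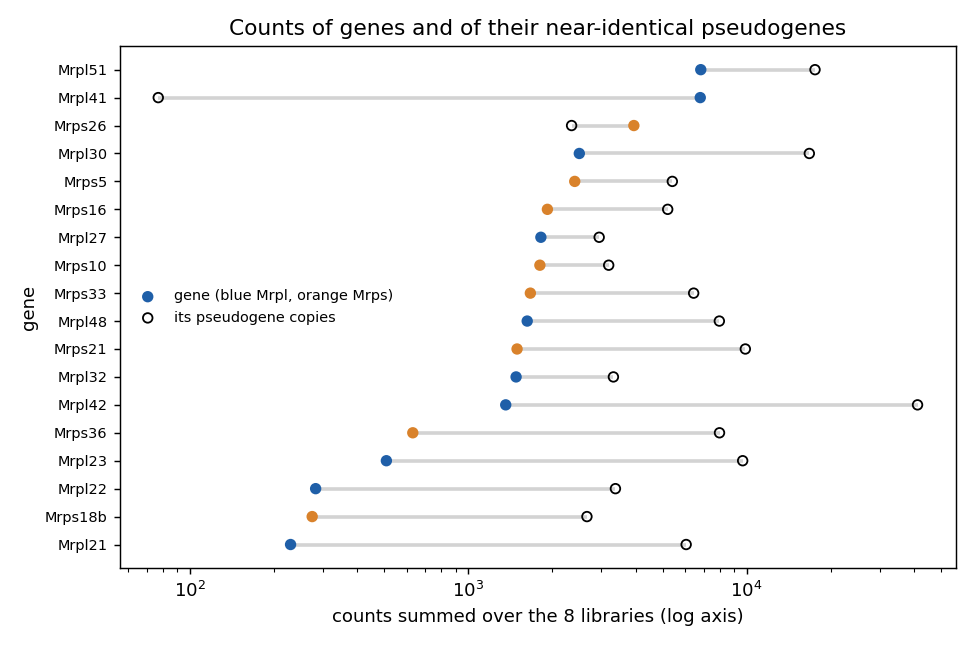
Counts summed over the 8 libraries (log axis) of the 18 genes with near-identical pseudogenes (filled, blue for Mrpl and orange for Mrps) and of their copies (open), joined by a line for each gene. The open symbol lies to the right in 16 of 18 genes, and to the left in Mrpl41 and Mrps26.

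Across libraries the 2 subunits moved together. Summed over its genes, the large subunit was at 1447, 1757, 727 and 1610 CPM in db/m replicates 1 to 4 and at 1666, 1661, 1618 and 1632 in db/db replicates 1 to 4. The small subunit was at 760, 886, 366 and 833 CPM in db/m and at 868, 892, 839 and 847 in db/db. In both subunits db/m replicate 3 was far below the other 7 libraries, db/m replicate 2 was at or near the top, and the db/db libraries lay close together. The difference between the subunits in mean log2 CPM was 0.20 ± 0.04 (SD, n = 4) over the db/m libraries and 0.17 ± 0.03 (SD, n = 4) over the db/db libraries, with a range of 0.15 to 0.23 that included db/m replicate 3 at 0.21.

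**Figure D3:**
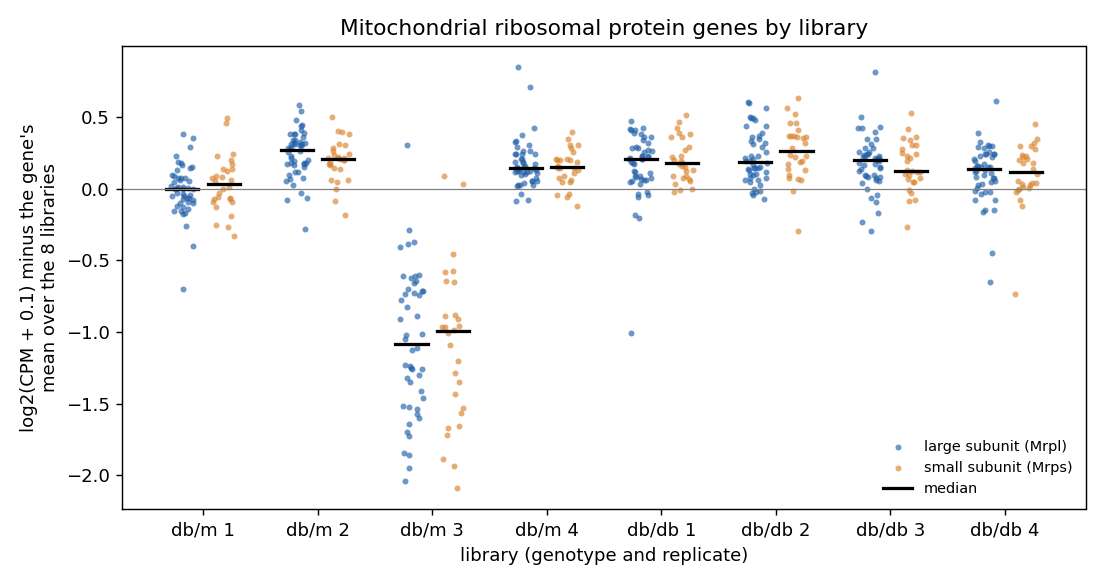
Each point is a tested gene in a library, as log2(CPM + 0.1) minus that gene's mean over the 8 libraries, with large-subunit genes in blue, small-subunit genes in orange and black bars at the medians. Nearly the whole column of db/m replicate 3 lies below 0, while the medians of the other 7 libraries lie near or above 0.

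The low values of db/m replicate 3 ran through almost the whole set. It was the lowest of the 8 libraries in 72 of 76 tested genes (94.7%), against 32.1% of all genes tested. Its CPM was a median 0.420 of the mean of the other db/m libraries (0.417 in the large and 0.451 in the small subunit), against 0.992 over all genes tested. The lowest ratio was 0.177, in Mrps21, which had 1.82 CPM there, against 9.50, 11.4 and 9.83 in the other db/m libraries. Mrpl14, a large-subunit protein with a bacterial counterpart, was at 7.44 CPM, against 31.9, 39.2 and 35.7. The 3 genes at the other extreme were Mrps5 (ratio 1.10), Mrps18b (1.07) and Mrpl48 (0.999), and all 3 are among the genes with a pseudogene copy that holds more counts.

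The ratio went with length. Short transcripts had the lowest ratios: across the 76 genes, the log2 ratio had a Spearman correlation of 0.58 with the length of the longest protein-coding transcript and of -0.37 with its GC content. These describe genes of a single library and carry no test. The median ratio was 0.274 in 18 genes with under 1500 bases of exon, 0.420 in 36 genes of 1500 to 4000 bases and 0.580 in 22 genes of 4000 bases or more. Over all genes tested, the same classes had 0.656, 0.851 and 1.20, so the members lay below other genes of their length class in each. The members are short, with a median longest transcript of 1327.5 bases against 3205 for all genes tested. Among cardiomyocyte markers, 6 of 8 were lowest in this library and the other 2, Myh6 and Ryr2, highest. The part of the atrial and adipocyte counts in the low values was not tested.

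**Figure D4:**
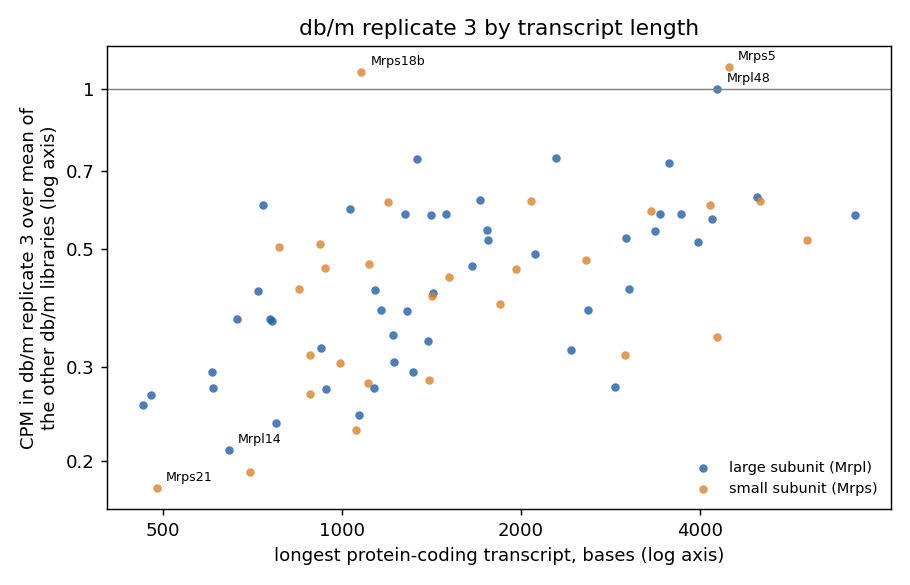
CPM in db/m replicate 3 divided by the mean of the other db/m libraries (log axis) against the length of the longest protein-coding transcript (log axis) for the 76 tested genes, with large-subunit genes in blue and small-subunit genes in orange. Most points lie below the line at 1, from Mrps21 at 0.177 to Mrps5 at 1.10, and shorter transcripts lie lower.

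The comparison of db/db with db/m hearts asks which genes differ with the diabetic genotype. No mitochondrial ribosomal protein gene passed: edgeR's quasi-likelihood test with Benjamini-Hochberg adjustment over 17411 genes called 0 of the 76, against 1 of all genes (0.00574%), and the smallest adjusted p was 0.296. At an unadjusted p under 0.05 there were 0 higher genes, against 5.12% of all genes tested, and 1 lower gene, Mrpl48, against 7.84%. DESeq2, which tested 77 members, also called 0 (1.77% of all genes with an adjusted p), and limma-voom with sample quality weights 0 (0.58%). At an unadjusted p under 0.05, DESeq2 had 0 higher and 1 lower member, against 3.63% and 5.54% of all genes, and limma-voom 3 higher and 2 lower, against 7.01% and 7.29%. The estimates leaned upward without passing: the log2 fold change of db/db over db/m was positive in 70 of 76 genes (92.1%), against 47.7% of all genes tested. The median was 0.25 in the large subunit (43 of 48 positive), 0.28 in the small subunit (27 of 28 positive) and -0.02 over all genes. With the trend of each library on exon length removed the medians were 0.19 and 0.27.

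Without db/m replicate 3 that lean was mostly gone. The median was 0.04 in the large subunit (33 of 48 positive) and 0.06 in the small subunit (17 of 28 positive), and 50 of 76 genes (65.8%) were positive, against 49.4% of all genes tested. The estimate was smaller than with all libraries in 73 of 76 genes. edgeR with Benjamini-Hochberg adjustment then called 0 of the 76 genes, against 0.6% of all genes, with a smallest adjusted p of 0.218. Unadjusted p values under 0.05 were found for 4 higher genes, Mrpl28, Mrpl43, Mrps28 and Mrps27 (5.26% of the 76, against 6.84% of all genes), and for 3 lower genes, Mrpl48, Mrpl47 and Mrps2 (against 6.34%). Both shares lie near the background. With db/m replicate 1 left out as well, the medians were -0.05 and 0.02, and 37 of 76 genes were positive, against 50.4% of all genes. In that fit edgeR with Benjamini-Hochberg adjustment called 0 members (0.256% of all genes), and at an unadjusted p under 0.05 there was 1 higher gene, against 5.63%, and 4 lower genes, against 5.04%.

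**Figure D5:**
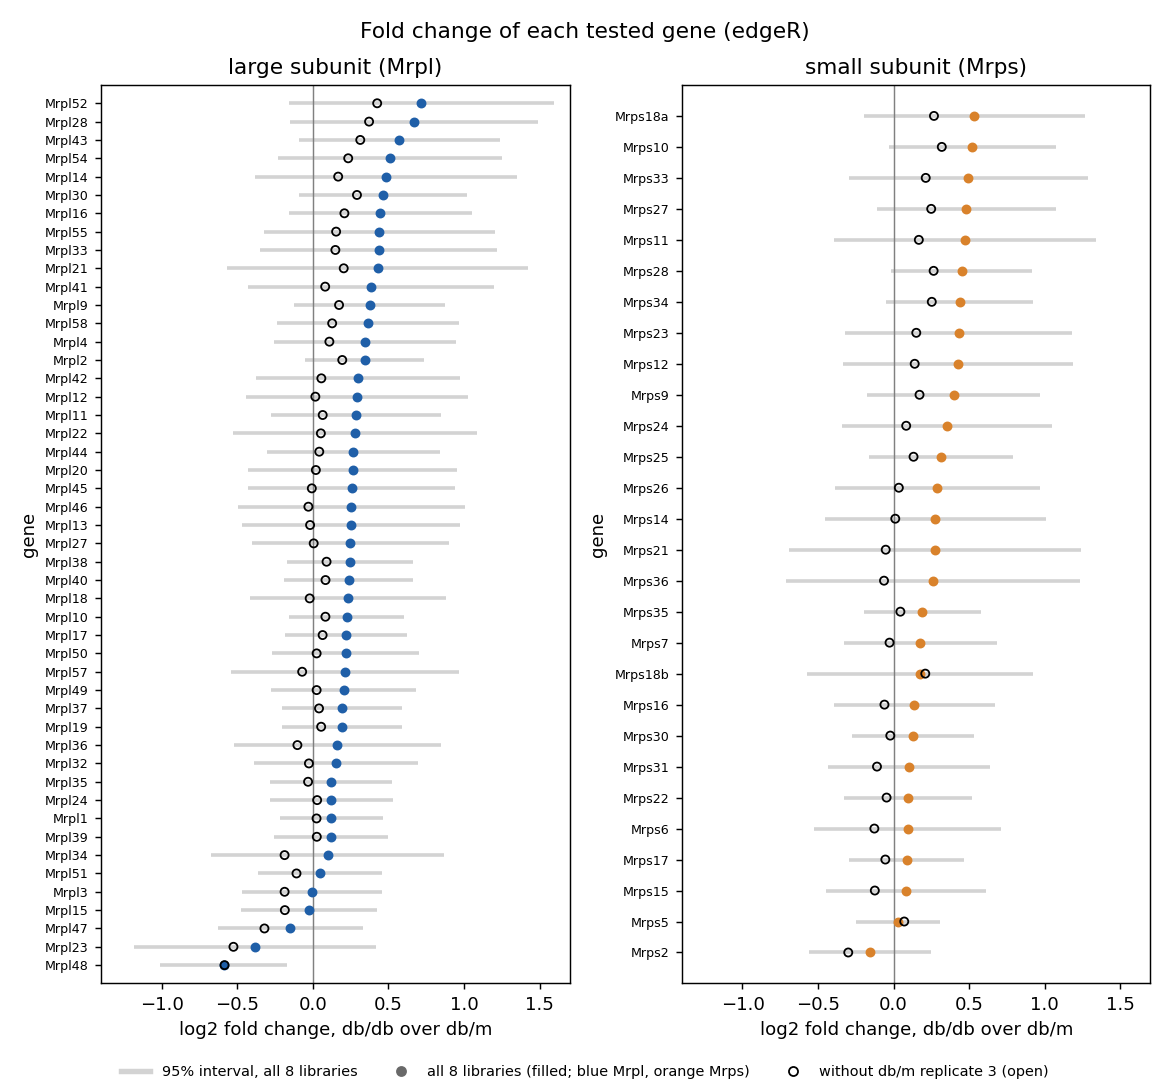
Log2 fold change of db/db over db/m for the 48 large-subunit and 28 small-subunit genes tested, from all 8 libraries (filled, with the 95% interval in grey) and without db/m replicate 3 (open). With all libraries the interval holds 0 in every gene but Mrpl48, and the open symbols lie to the left in 73 of 76 genes.

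The precision limits what could be seen. With all libraries the 95% interval held 0 in 75 of 76 genes, reached a median of 0.58 to either side on the log2 scale and stayed within -1 to 1 in 49 genes. Without db/m replicate 3 the median reach was 0.27, and 72 genes stayed within -1 to 1.

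Mrpl48, a mitochondria-only protein of the large subunit (ENSMUSG00000030706, chromosome 7, 100545751 to 100608301, mm10), was the single gene with lower values in every db/db library. It had 9.28, 13.6, 11.5 and 11.7 CPM in db/m replicates 1 to 4 and 8.02, 9.10, 7.55 and 5.87 in db/db replicates 1 to 4. The groups did not overlap, and db/m replicate 3 was here in the middle of its group. The log2 fold change was -0.59 (SE 0.19) and did not pass in edgeR (Benjamini-Hochberg adjusted p = 0.296); it was -0.58 without db/m replicate 3 (adjusted p = 0.218 by edgeR). The gene held 1628 counts, against 7975 in its copy Mrpl48-ps, and with the counts of the copy added the log2 fold change was 0.14.

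In 4 genes every db/db library lay above every db/m library, which is 5.26% of the 76, against 5.04% of all genes tested; the reverse, in Mrpl48 alone, is 1.32%, against 4.61%. Mrpl43, a mitochondria-only protein whose exons overlap those of Twnk by 33.4%, had 20.1, 25.0, 7.78 and 24.5 CPM in db/m and 29.0, 27.6, 30.2 and 28.2 in db/db. Mrpl9, a large-subunit protein with a bacterial counterpart, had 59.8, 64.9, 29.8 and 67.7 CPM in db/m and 75.3, 69.3, 72.4 and 71.2 in db/db. The gap between the groups was small beside the distance of db/m replicate 3 from its group. Their log2 fold changes were 0.57 (SE 0.30) and 0.38 (SE 0.22), and 0.31 and 0.17 without that library.

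Mrps28, a small-subunit protein, had 28.1, 27.9, 13.6 and 24.9 CPM in db/m and 30.2, 34.7, 32.7 and 31.3 in db/db. Mrps12, a protein of the decoding centre, had 27.2, 27.6, 7.24 and 26.6 CPM in db/m and 28.1, 33.1, 28.2 and 29.7 in db/db. Both were higher in all 4 db/db libraries, by little over the nearest db/m library. The log2 fold change was 0.45 (SE 0.21) for Mrps28, the small-subunit gene with the smallest p (edgeR, adjusted p = 0.397 after Benjamini-Hochberg adjustment), and 0.26 without db/m replicate 3. For Mrps12 it was 0.43 (SE 0.34), and 0.14 without that library.

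The next small-subunit genes in order of p overlapped between the groups. Mrps10 had 9.15, 9.82, 4.84 and 12.0 CPM in db/m and 14.0, 13.5, 12.0 and 11.8 in db/db, with a log2 fold change of 0.52 (SE 0.25). Mrps34, whose loss destabilises the small subunit, had 38.4, 52.1, 23.7 and 48.7 CPM in db/m and 53.2, 59.9, 49.7 and 57.7 in db/db, with 0.44 (SE 0.22). Mrps27, an RNA-binding protein with pentatricopeptide repeats, had 31.5, 34.4, 13.4 and 36.3 CPM in db/m and 42.2, 38.4, 35.7 and 45.0 in db/db, with 0.48 (SE 0.27). In each of the 3, at least 1 db/db library lay below the highest db/m library. Without db/m replicate 3 the 3 values were 0.32, 0.25 and 0.25. Exons of other genes cover 77.8% of Mrps34 and 24.2% of Mrps27.

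In the 2 genes of each subunit with the highest level per kilobase of exon, db/m replicate 3 was again the lowest library. The order of the others varied. Mrpl34 had 57.5, 78.1, 18.0 and 61.5 CPM in db/m and 58.5, 65.4, 54.9 and 51.2 in db/db, a log2 fold change of 0.10 (SE 0.35) that was -0.19 without db/m replicate 3. Mrpl28 had 55.8, 76.1, 16.0 and 64.6 CPM in db/m and 83.0, 86.7, 73.3 and 95.1 in db/db, a log2 fold change of 0.67 (SE 0.37) that was 0.37 without that library. Apart from db/m replicate 3, the groups overlapped in both genes: 2 db/db libraries were below all remaining db/m libraries for Mrpl34, and 1 was below the highest db/m library for Mrpl28. In the small subunit, Mrps23 had 89.6, 125, 30.3 and 107 CPM in db/m and 125, 119, 113 and 116 in db/db, and Mrps24 had 54.3, 56.6, 17.0 and 56.0 in db/m and 60.3, 63.5, 53.7 and 57.4 in db/db. Their log2 fold changes of 0.43 (SE 0.34) and 0.35 (SE 0.31) were 0.15 and 0.08 without db/m replicate 3.

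At the low end, Mrpl23 had 3.08, 3.53, 2.27 and 4.65 CPM in db/m and 1.35, 2.96, 4.01 and 2.03 in db/db, with a log2 fold change of -0.38 (SE 0.36). Mrps18b had 1.23, 1.37, 1.61 and 1.90 CPM in db/m and 2.10, 1.88, 2.03 and 0.907 in db/db, with 0.18 (SE 0.34). The groups overlapped in both genes. With single libraries left out in turn the values ranged from -0.67 to -0.17 for Mrpl23 and from 0.07 to 0.39 for Mrps18b, and without db/m replicate 3 they were -0.53 and 0.21. With the counts of the pseudogenes added they were 0.27, of the opposite sign, and 0.35.

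The symbols of 4 genes do not tell their place or role. Mrps30 and Mrps18a are named for the small subunit but sit in the large one. Mrps30 had 22.8, 27.2, 14.8 and 25.6 CPM in db/m and 25.8, 24.4, 25.3 and 23.3 in db/db, a log2 fold change of 0.13 (SE 0.18). Mrps18a had 24.3, 34.7, 9.72 and 33.4 CPM in db/m and 40.1, 39.9, 38.7 and 29.1 in db/db, a log2 fold change of 0.53 (SE 0.33). Counting both in the large subunit left the medians at 0.25 and 0.28. Mrpl58, a peptidyl-tRNA hydrolase that frees stalled ribosomes, had 25.5, 28.4, 10.5 and 27.7 CPM in db/m and 26.7, 28.8, 33.2 and 29.7 in db/db, with 0.36 (SE 0.27). Mrps36, now known as a subunit of the 2-oxoglutarate dehydrogenase complex, had 4.88, 3.88, 0.827 and 4.27 CPM in db/m and 4.95, 4.46, 3.68 and 3.47 in db/db, with 0.26 (SE 0.44). All 4 overlapped between the groups. Without db/m replicate 3 the values were -0.02 for Mrps30, 0.27 for Mrps18a, 0.13 for Mrpl58 and -0.06 for Mrps36.

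Split by evolutionary origin, the genes had like medians. The 46 tested genes with a bacterial counterpart had a median log2 fold change of 0.25 (41 positive), and the 28 found only in mitochondria 0.26 (27 positive). These classes do not cover all 76 tested genes. Without db/m replicate 3 both medians were 0.04. Genes with neither a pseudogene copy nor an exon overlap of 10% or more had a median of 0.25 (40 of 43 positive), and 0.04 without that library. The 18 genes with a copy had a median of 0.27, and again 0.27 with the counts of the copies added, although all 18 were then positive, against 16 before. Their median was 0.04 (11 positive) without db/m replicate 3. The 32 tested genes with an oppositely oriented neighbour starting within 1000 bases had a median of 0.24, and 0.06 without db/m replicate 3.

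Other proteins of the mitochondrial translation machinery were read from the same fit. In it, edgeR with Benjamini-Hochberg adjustment called 0 of their 65 tested genes, against 0.00574% of all genes tested. The 5 mitoribosomal proteins with other names, Dap3, Ptcd3, Chchd1, Aurkaip1 and Gadd45gip1, had a median log2 fold change of 0.19 (5 of 5 positive), and 0.02 without db/m replicate 3. Chchd1, a small-subunit protein, followed the main pattern, with 29.2, 35.2, 9.26 and 32.2 CPM in db/m and 34.8, 34.7, 33.4 and 28.1 in db/db. Dap3, a GTP-binding protein of the small subunit, did not have its lowest value in db/m replicate 3: it had 30.5, 40.6, 40.3 and 38.9 CPM in db/m and 45.0, 38.1, 37.7 and 48.6 in db/db.

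The 13 translation factors had a median of 0.16 (10 positive) and the 17 aminoacyl-tRNA synthetases, which charge the transfer RNAs, 0.25 (13 positive). Among these, 1 gene in each list had an unadjusted p under 0.05, both higher, against 5.12% of all genes tested; 5.04% of all genes had every db/db library above every db/m library. Gfm2, which helps to split the ribosome after termination, had 44.4, 52.9, 39.5 and 53.2 CPM in db/m and 66.7, 65.4, 57.9 and 61.8 in db/db, without overlap (log2 fold change 0.41, SE 0.13; edgeR, Benjamini-Hochberg adjusted p = 0.296). Iars2, the isoleucyl-tRNA synthetase, had 68.9, 77.8, 76.4 and 73.1 CPM in db/m and 90.7, 81.9, 82.9 and 97.2 in db/db, also without overlap (0.25, SE 0.11; adjusted p = 0.381 by edgeR). In Iars2, db/m replicate 3 lay inside the range of its group, and in Gfm2 below it. Without that library the log2 fold changes were 0.33 for Gfm2 and 0.27 for Iars2, and the list medians -0.01 and 0.17.

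The 22 tested genes for mitoribosome assembly and rRNA modification had a median of 0.19 (14 positive), and 0.06 without db/m replicate 3. Trub2, a pseudouridine synthase, had 22.5, 23.8, 15.6 and 26.5 CPM in db/m and 31.2, 28.4, 34.9 and 32.8 in db/db, without overlap (log2 fold change 0.53, SE 0.17; edgeR, Benjamini-Hochberg adjusted p = 0.296). The value was 0.40 without db/m replicate 3. It was the only gene of the list with an unadjusted p under 0.05 with all libraries, which is 1 of 22, against 5.12% of all genes higher and 7.84% lower. The 8 tested genes for mitochondrial transcription had a median of 0.10 (6 positive), and -0.03 without that library. Its gene with the smallest p was Lrpprc, whose product stabilises mitochondrial messenger RNAs, with 86.0, 108, 80.6 and 91.1 CPM in db/m and 105, 107, 102 and 113 in db/db. The groups overlapped, and the log2 fold change was 0.22 (SE 0.12), and 0.17 without db/m replicate 3.

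Complex I subunits and cytosolic ribosomal proteins also had positive medians. The 37 subunits of respiratory complex I had a median log2 fold change of 0.44 (37 of 37 positive). Without db/m replicate 3 it was 0.18 (35 of 37 positive, against 49.4% of all genes tested). The 69 tested cytosolic ribosomal proteins had a median of 0.31 (66 positive), and 0.13 without that library, when 51 of 70 tested were positive. Their summed levels in db/m replicate 3 were also the lowest of the 8 libraries, at 1354 CPM for complex I, against 3137 to 4217 in the others, and 674 CPM for the cytosolic ribosomal proteins, against 1412 to 1845. These lists share all 8 libraries with the comparison above. With all libraries, edgeR with Benjamini-Hochberg adjustment called 0 of their genes, against 0.00574% of all genes tested. Without db/m replicate 3 edgeR called 1, against 0.6% of all genes tested. This was Rpl22, a large-subunit protein of the cytosolic ribosome singled out after its values were known. Its log2 fold change by edgeR was then 0.57 (SE 0.10, adjusted p = 0.0301), against 0.67 (SE 0.14, adjusted p = 0.146) with all libraries. With all libraries, DESeq2 (adjusted p = 0.00559) and limma-voom (adjusted p = 0.0305) also called this gene alone from the 2 lists. Over all genes, DESeq2 called 1.77% of those with an adjusted p, and limma-voom 0.58%. With all libraries and pseudogene counts added to the genes, edgeR called 0 of 74 tested cytosolic ribosomal proteins, against 0 of 69 without those counts. The smallest Benjamini-Hochberg adjusted p of that edgeR fit in this list was 0.359. The fits that called Rpl22 were not run with pseudogene counts added. No test of the difference between the lists was made.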

How the data were processed

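RNA sequencing gave 4 libraries from db/m and 4 from db/db heart tissue, grouped by the genotype that the labels give. Values were deposited as raw whole-number counts for Ensembl genes, with no normalisation or pooling, per the file headers and the values. Counts in the single-sample files and in the joint table were identical. The build is mm10, per the submitters' processing notes. Neither aligner nor counting tool is named in the labels, and the annotation release, the strand setting and the handling of reads that fit several places are likewise not given in the sources used here.

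Symbols came from GENCODE M21 by Ensembl identifier (55480 of 55573 found), and all 78 members had the same start and end. The test was run in edgeR 4.0.16 (R 4.3.3): filterByExpr (minimum count 10, minimum total 15; 17411 genes kept), TMM scaling, and a robust quasi-likelihood F test with genotype as its single factor, two-sided, with Benjamini-Hochberg adjustment across the tested genes and a call at an adjusted p under 0.05. Fold changes are given as log2 of db/db over db/m. CPM is relative to the scaled library sizes, and levels per kilobase use the deposited exon length. Each script that tests across genes was checked on simulated counts. BLAST 2.17.0 matched pseudogene to coding transcripts. Promoter windows are from RefSeq. The NRF1 letters searched are 1 base shorter than a form searched before; they were changed after the matches of that form, which were fewer in the members and in all protein-coding genes, had been seen.

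Alternatives were DESeq2 1.42.0, limma-voom (limma 3.58.1), other size factors, other filters, a replicate block, removal of length trends, pseudogene counts added to the gene, and leaving out each library. A fit without db/m replicates 1 and 3 and the removal of a trend on transcript GC content were added after seeing the data. Members and lists were chosen with earlier results of these data known. Values in every library are given for members with the smallest unadjusted p (up to 8 per subunit under 0.05, otherwise the 4 smallest), the 2 highest and 2 lowest per kilobase in each subunit, those whose groups do not overlap, and Mrps30, Mrps18a, Mrps36 and Mrpl58. Up to 3 genes of each other list are named by p, and any of the other mitoribosomal proteins. Mrps21, Mrpl14, Mrps5 and the genes named for their pseudogene counts were chosen for mention once their values had been seen. Replicate numbers were not used to pair the samples. The correlations of the same-numbered deviations were -0.09, 0.06, 0.03 and 0.02. With 4 libraries per group this shows no sign of a pairing but cannot exclude one.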

Additional observations from a re-analysis of the deposited data

Results flagged for a closer look

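In groups of 4 libraries, a library was marked as far from the others where its gap to the nearest, divided by the whole range of the group, was above Dixon's critical value, a limit that chance passes in about 5% of groups. Among the members with values given in every library, this held in db/m for replicate 3 in Mrps24 (gap 0.941 of the range, at 17.0 CPM), Mrps12 (0.947, at 7.24 CPM) and Mrpl58 (0.840, at 10.5 CPM). It also held there for the mean log2 CPM of the small subunit (0.874, at 3.23). The large-subunit mean was not marked, though it was also low, at 3.44 in db/m replicate 3 against 4.51 to 4.75 in the other db/m libraries. In db/db it held for replicate 4 in Mrps18a (0.870, at 29.1 CPM). Over the tested members, db/m replicate 3 was far below its group in 10 of 76 (13.2%), against 589 of 17411 genes (3.38%).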

How the results depend on the processing

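The count of called members was 0 under all 19 alternatives, and the smallest adjusted p of a member under any of them was 0.130, by limma-voom. Over all genes, the count of calls moved from 1 to 354 with DESeq2, 101 with limma-voom, 27 with no filter, 12 with the length trend removed, 46 without db/m replicates 1 and 3, 2 with the GC trend removed (13398 genes tested), and between 0 and 106 when single libraries were left out, with 106 without db/m replicate 3. The medians of 0.25 and 0.28 for the large and small subunit depended on that library: they were 0.04 and 0.06 without it, 0.06 and 0.06 by limma-voom, which gave it a low weight, and -0.05 and 0.02 without db/m replicates 1 and 3. When the other libraries were left out singly, the medians lay between 0.25 and 0.36 and between 0.22 and 0.40. With the replicate block, edgeR called 5 genes and 0 members, with medians of 0.34 and 0.38. The numbers were not read as a pairing, as 2 of 8 samples correlated best with their own number, though this cannot exclude one. Of 342 values for the 18 named members tested, all stayed on the same side of the threshold, and 9 had the opposite sign. The cause of these shifts was not tested. The filter on low counts left Mrpl53 and Mrps18c out of the edgeR test; the part of depth in their low counts was not tested.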
